A study of Mus musculus with 8 samples.

Results

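The growth hormone and STAT5 axis of the liver was followed through 10 genes chosen by name: Ghr, Jak2, Stat5a, Stat5b, Igf1, Igfals, Socs2, Socs3, Cish and Bcl6. All 10 had a probe set annotated to that gene alone, out of 19938 genes measured in this way. Where a gene had several such probe sets (Socs2 and Socs3), the rule took the one with the highest mean signal over the arrays, so the measured level chose the probe set and is not a finding. RNA came from 8 livers of C57BL6 mice, each hybridised to an Affymetrix Mouse Gene 1.0 ST array, which reads a transcript through several probes. The hydrogen water group (4 arrays) was given hydrogen water to drink for 4 weeks. The control group (4 arrays) is named as such by the sample titles, which give no genotype or other agent. The labels set the start at 7 weeks of age in a text worded alike for both groups. All 8 livers were taken after 17 h without food, so both groups are fasted and no fed liver stands beside them. The labels do not give the sex of the mice, on which several growth hormone targets of mouse liver depend. The series record counts 4 control and 4 hydrogen water mice, as many as the arrays, but the labels do not tie each array to an animal. If some arrays share an animal, the p-values cover the variation between samples alone, which may be technical.

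Growth hormone from the pituitary binds its receptor (Ghr) on hepatocytes, which activates the kinase JAK2, and JAK2 phosphorylates the transcription factors STAT5A and STAT5B. These enter the nucleus and switch on Igf1 and Igfals, whose products circulate together, and also Socs2 and Cish, whose products damp the signal in a feedback loop. In male rodents the hormone arrives in pulses, so the transcripts of short-lived targets can differ with the time since the last pulse. BCL6 is a repressor that binds sites like those of STAT5, and in mouse liver its own gene is repressed by STAT5. Fasting is known to make the mouse liver resistant to growth hormone.

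The array medians lay between 5.27 and 5.37 on the log2 scale, and pairs of arrays correlated at 0.988 to 0.995 over the 19938 genes. Control 3 was the array least like the rest of its group (mean correlation 0.9891), and differences without it are given below for the genes in which it moved them most. The log2 signal of albumin (Alb), the defining hepatocyte product, was 14.29 to 14.41 with hydrogen water and 14.33 to 14.47 in controls. Precision is limited by having 4 arrays in a group.

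The data show 4 patterns. Socs2, Igfals and Cish were low on control 3 and on no other array to that extent. Bcl6 spread widely between arrays and tended to run against Cish, most plainly among the controls. Ghr and Igf1 hardly varied. None of the 10 genes differed between hydrogen water and control past the test over all genes.

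The upstream genes come first. Ghr (transcript cluster 10427402), the receptor, had log2 signals of 11.64, 11.62, 11.72 and 11.82 on hydrogen water 1 to 4, against 11.84, 11.71, 11.85 and 11.75 on controls 1 to 4. Its SD over the 8 arrays was 0.09, where the median over all genes was 0.18, and only 4.74% of genes varied less. Its groups overlapped, and the difference was -0.09 (SE 0.10, 95% interval -0.30 to 0.12).

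Jak2 (transcript cluster 10462363), the kinase bound to the receptor, stood at 6.98, 7.08, 6.89 and 7.20 with hydrogen water, against 7.13, 6.61, 7.55 and 6.90 in controls. The lowest and the highest array were both controls, namely control 2 and control 3. The difference between the groups was -0.01 (SE 0.17, 95% interval -0.38 to 0.36), and it was 0.16 (SE 0.14) without control 3.

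Stat5a (transcript cluster 10381172) stood at 7.64, 7.39, 7.93 and 7.92 with hydrogen water, against 7.56, 7.49, 7.61 and 7.36 in controls. Hydrogen water 3 and 4 were the highest arrays and hydrogen water 2 the second lowest, so the groups overlapped. Its difference of 0.22 (SE 0.13, 95% interval -0.07 to 0.50) did not pass the test (limma adjusted p = 0.782). Stat5b (transcript cluster 10391286), the more abundant STAT5 of liver in background knowledge, stood at 8.63, 8.45, 8.71 and 9.12 with hydrogen water, against 8.90, 8.90, 8.88 and 8.68 in controls. Controls 1 to 3 lay within 0.02 of each other and control 4 below them, while the hydrogen water arrays held both the lowest and the highest value. The difference was -0.11 (SE 0.14, 95% interval -0.41 to 0.19). Both genes lie on chromosome 11 and code for closely related proteins, and whether their probes also read the other transcript was not tested.

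Of the secreted products, Igf1 (transcript cluster 10365559), the hormone through which growth hormone acts on growth, stood at 11.99, 12.01, 12.23 and 12.19 with hydrogen water, against 12.16, 12.17, 12.12 and 12.16 in controls. Controls were nearly level, and hydrogen water 1 and 2 lay below every control while hydrogen water 3 and 4 lay above. The difference was -0.05 (SE 0.10, 95% interval -0.26 to 0.16). Over the 8 arrays Igf1 varied by 1.18-fold from lowest to highest, with an SD of 0.09.

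Igfals (transcript cluster 10442625) codes for the acid-labile subunit, the liver protein that holds IGF-1 in its circulating complex. It stood at 8.97, 8.99, 9.39 and 8.68 with hydrogen water, against 9.50, 9.31, 7.56 and 9.58 in controls. Control 3 was by far the lowest array, while the other 3 controls were close to or above the highest hydrogen water array. With all arrays the difference was 0.02 (SE 0.37, 95% interval -0.78 to 0.82). Without control 3 it was -0.46 (SE 0.15, 95% interval -0.80 to -0.12, limma adjusted p = 0.499). Its direction also turned without hydrogen water 3 (-0.11), so the near-zero difference over all arrays has no stable direction.

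Socs2, the feedback inhibitor whose loss makes mice grow large, had the same shape. On the probe set with the higher signal (transcript cluster 10394674), Socs2 stood at 9.79, 10.05, 10.69 and 9.69 with hydrogen water, against 10.41, 10.85, 7.13 and 10.43 in controls. Control 3 lay 9.72-fold below the median of the other 7 arrays. Among 19938 genes, this was the largest fall of control 3 below the other arrays. With all arrays the difference was 0.35 (SE 0.64, 95% interval -1.05 to 1.75, limma adjusted p = 0.942), and without control 3 it was -0.51 (SE 0.22, 95% interval -0.99 to -0.03, limma adjusted p = 0.578).

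The other probe set of Socs2 (transcript cluster 10372069) stood at 7.13, 7.33, 7.64 and 7.03 with hydrogen water, against 7.65, 7.96, 6.31 and 7.65 in controls. It ranked the arrays in nearly the same order, with control 3 lowest, 2.52-fold below the median of the others, and control 2 highest. Its difference between the groups was -0.11 with all arrays and -0.47 without control 3, so the probe sets of this gene differed in direction with all arrays and not without that array. Socs2 lies on chromosome 10, but the probe sets next to 10394674 in the numbering of the array belong to genes of chromosome 12 (5 of 5 with a known chromosome). Whether 10394674 reads a copy of Socs2 elsewhere in the genome was not tested, and the level of Socs2 is uncertain to that extent.

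**Figure D1:**
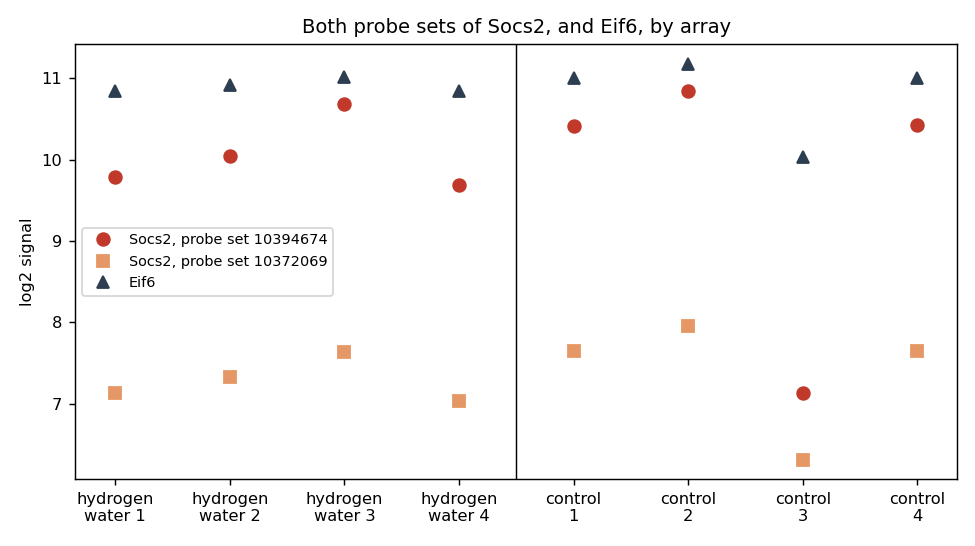
Log2 signal of both Socs2 probe sets and of Eif6, the gene most like Socs2 over the arrays, on each of the 8 arrays (1 point per array and probe set, hydrogen water left of the line, controls right of it). All 3 have their lowest value on control 3, at 7.13 and 6.31 for Socs2 and 10.03 for Eif6.

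Cish (transcript cluster 10588577), the founding member of the SOCS family and an immediate STAT5 target, stood at 7.79, 7.87, 8.02 and 7.31 with hydrogen water, against 7.27, 6.53, 5.96 and 8.22 in controls. The hydrogen water arrays lay close together between the controls, which held both the highest value (control 4) and the 3 lowest. The SD was 0.31 with hydrogen water and 0.98 in controls (n = 4 each); the difference in spread was not tested. The difference between the means was 0.75 (SE 0.37, 95% interval -0.06 to 1.57, limma adjusted p = 0.716). It was 0.41 without control 3 and 1.16 without control 4.

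Socs3 (transcript cluster 10393449), which interleukin-6 also induces through STAT3, stood at 6.99, 6.67, 6.52 and 6.39 with hydrogen water, against 6.37, 6.91, 6.52 and 7.48 in controls. Control 4 was the highest array and control 3 was not low. The difference was -0.18 (SE 0.22, 95% interval -0.65 to 0.30), -0.28 without control 3 and 0.04 without control 4. The second probe set of Socs3 (transcript cluster 10383010), annotated through 1 accession, stood at 5.63 to 5.99 with hydrogen water and at 5.56 to 6.04 in controls, a difference of 0.04.

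Bcl6 (transcript cluster 10438738), the repressor, stood at 6.64, 5.79, 7.11 and 6.90 with hydrogen water, against 8.43, 9.39, 7.69 and 5.88 in controls. Controls 1, 2 and 3 lay above every hydrogen water array, whereas control 4 was lower than all of them but hydrogen water 2. Bcl6 had the largest distance between the groups of the 10 genes, -1.24 (SE 0.57, 95% interval -2.48 to 0.01), and did not pass the test (limma adjusted p = 0.697). That difference was -0.72 without control 2 and -1.89 without control 4. Over the 8 arrays Bcl6 ranged over 12.1-fold.

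**Figure D2:**
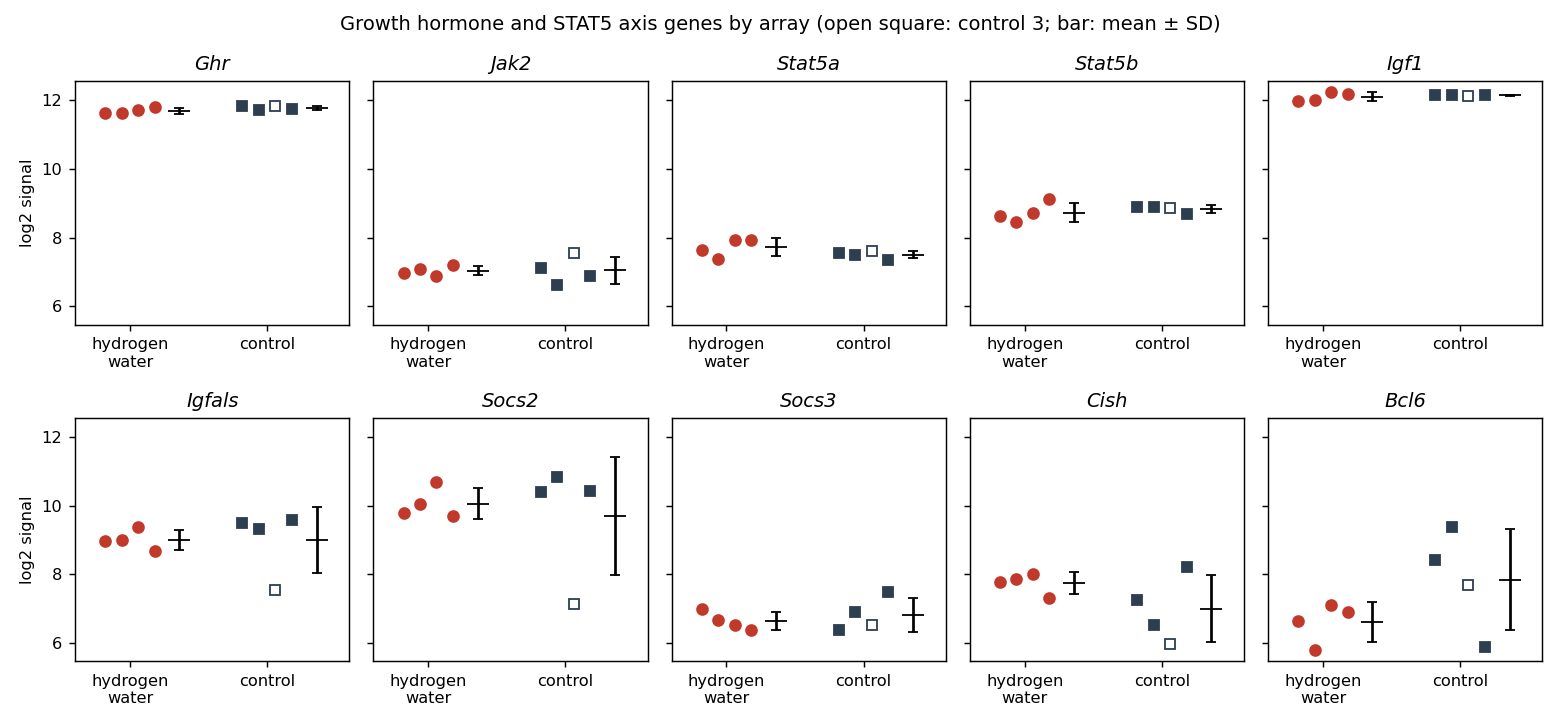
Log2 signal of the 10 genes on each array (red circles, hydrogen water; dark squares, control; open square, control 3), with the mean ± SD of each group beside the points (n = 4). Control 3 lies far below the other arrays in Socs2 (7.13) and Igfals (7.56), and the controls are spread widely in Bcl6 (5.88 to 9.39).

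Across the table, limma (p-values adjusted by Benjamini-Hochberg) called 0 of 19938 genes between hydrogen water and control at an adjusted p under 0.05, or 0%. Of the 10 genes 0 passed, with adjusted p from 0.697 to 0.996. Without adjustment, p was under 0.05 in 1429 genes, or 7.17% of all, and in 0 of the 10. Groups did not overlap in 3.76% of all genes and in 0 of the 10. In all, 4 of the genes were higher and 6 lower with hydrogen water, with a median difference of -0.03 beside -0.00 over all genes. Without control 3, limma reached an unadjusted p under 0.05 in 8.57% of all genes, and among the 10 in Igfals and Socs2, both lower with hydrogen water. Control 3 was the lowest array in these 2 genes and leaving it out also narrowed the control SD, to 0.14 in Igfals (0.96 with it) and 0.25 in Socs2 (1.73 with it), so these p-values depend on the values that singled it out and are no evidence of a difference. In bulk liver, fewer cells of a type and less RNA per cell cannot be told apart in any of these values.

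**Figure D3:**
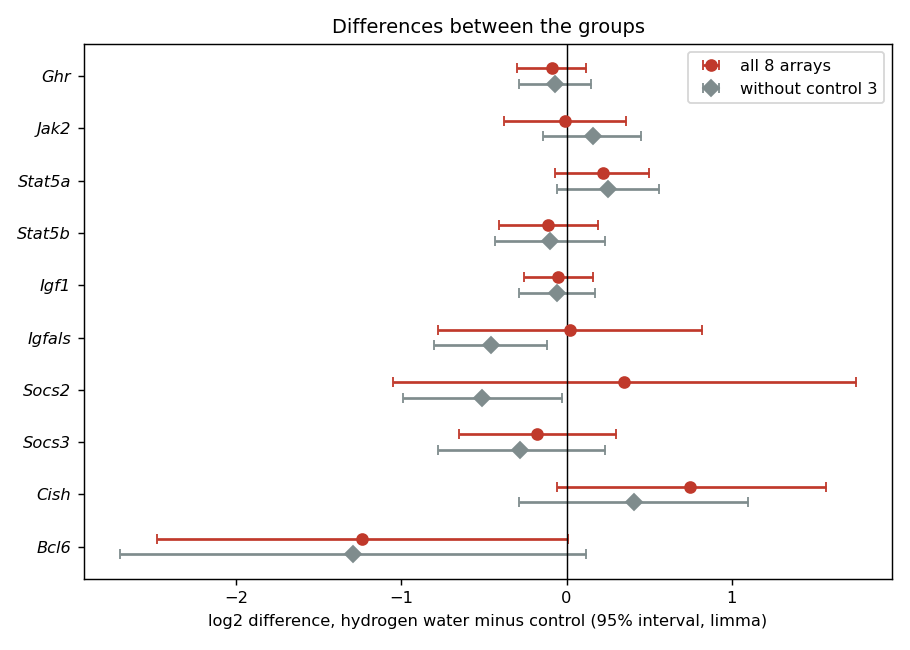
Difference in log2 signal, hydrogen water minus control, of each gene with its 95% interval from limma, over all 8 arrays (red) and without control 3 (grey). The intervals of Igfals and Socs2 include 0 with all arrays (0.02 and 0.35) and lie below it without control 3 (-0.46 and -0.51).

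The spread between arrays was above the median of all genes in 8 of the 10 and below it in Ghr and Igf1, which had the smallest SD of the 10 (0.09 each). The median SD over the 8 arrays was 0.33 for the 10 genes and 0.18 for all genes. Bcl6 (SD 1.23) and Socs2 (SD 1.19) ranked 3 and 5 among all 19938 genes, where Socs2 is taken on its probe set of higher signal; on the other the SD was 0.52, above 98.8% of genes. Cish (SD 0.78) and Igfals (SD 0.66) lay above 99.8% and 99.5% of them. Without control 3 the SD of Bcl6 was 1.32, of Cish 0.58, of Socs2 0.44 and of Igfals 0.33. The spread of Socs2 and Igfals was thus much smaller without control 3, and that of Bcl6 was not. These spreads are descriptions, since the genes were listed with earlier results of these arrays known.

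Control 3 stood apart in a small set of genes that held 3 of the 10. It lay at least 1 on the log2 scale from the median of the other 7 arrays in 152 genes, or 0.762% of all, of which 64 were lower and 88 higher. Socs2, Cish and Igfals were among the lower ones, at -3.28, -1.83 and -1.76, and ranked 1, 3 and 5 from the bottom of the 19938 genes. Socs2 is taken there on its probe set of higher signal, and on the other its value was -1.34. The genes at ranks 2 and 4 were the long non-coding RNA Malat1 (-1.91) and the provisional transcript 5730408K05Rik (-1.83), named here after their values were seen. Ghr (0.13), Stat5a (0.05), Stat5b (0.17) and Igf1 (-0.05) were near the other arrays on control 3, and Jak2 (0.57) and Bcl6 (0.78) were above them. Hydrogen water 4, the next most distant array, was as far from the others in 0.642% of all genes and in 0 of the 10. Control 2 was so in 0.336% of all genes and in 2 of the 10, Cish and Bcl6, and Bcl6 was also as far out on hydrogen water 2, control 1 and control 4.

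**Figure D4:**
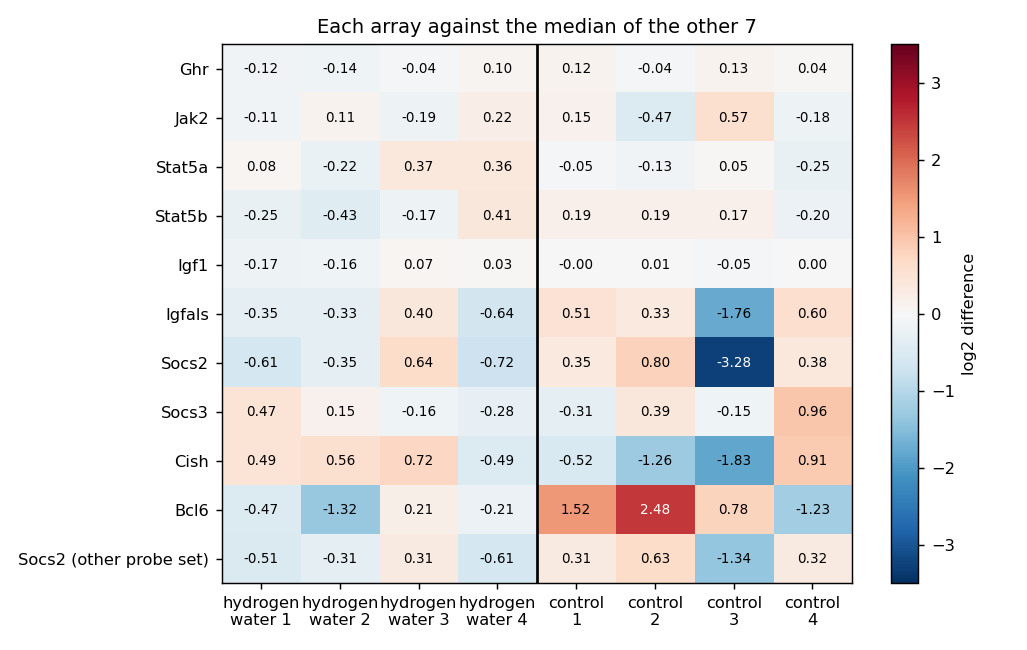
Log2 signal of each array minus the median of the other 7 arrays, for the 10 genes and the other probe set of Socs2 (red above, blue below; hydrogen water left of the line). The deepest blue cell is Socs2 on control 3 (-3.28), and the deepest red is Bcl6 on control 2 (2.48).

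Several liver genes outside the axis were also displaced on control 3. Of the 19 measured acute phase and interleukin-6 genes, 3 were higher there by at least 1: Lcn2, a lipocalin that the inflamed liver secretes, by 1.50, Orm3 by 1.26 and Orm2 by 1.13. Saa1 (-0.35), Saa3 (0.11), Hp (-0.02) and Socs3 (-0.15), all induced in inflammation, were not displaced in that way. Of the Kupffer cell markers, the complement gene C1qb was higher by 1.10 and Vsig4 by 0.87, while Clec4f (-0.03) and Adgre1 (0.02) were level. The part of these genes in the low Socs2, Igfals and Cish of control 3 was not tested.

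Over pairs of the 10 genes, 45 correlations across arrays were computed, and they are given as descriptions without a test. The points share their arrays, so an array that stands apart moves every pair. The median Pearson r was -0.01 over 8 arrays and 0.11 over the 7 without control 3. Socs2 and Igfals had the highest r of all pairs, 0.96 (Spearman rho 0.79, n = 8). It was 0.81 without control 3 (rho 0.68, n = 7) and 0.69 without the 2 arrays farthest from the Igfals median, control 3 and hydrogen water 4. Jak2 ran against Socs2, with r = -0.87 (rho -0.90, n = 8), -0.75 without control 3 and -0.60 without controls 2 and 3. Jak2 against Igfals had r = -0.80 (rho -0.60, n = 8), which was -0.46 without control 3.

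Cish and Socs2, both feedback targets of STAT5, had r = 0.63 (rho 0.33, n = 8), which was -0.24 without control 3, so the positive relation rested on that array. Cish and Igfals likewise had r = 0.69 (rho 0.55, n = 8) and 0.13 without it. Cish and Bcl6 tended to run in opposite directions, with r = -0.70 (rho -0.74, n = 8) and -0.88 without control 3 (rho -0.71, n = 7). It was -0.70 without controls 2 and 3 and -0.59 with each group centred on its mean. Control 4 and control 2 show this plainly: Cish stood at 8.22 and Bcl6 at 5.88 on control 4, whereas Cish stood at 6.53 and Bcl6 at 9.39 on control 2. Other arrays did not keep to it. Hydrogen water 3 held the highest value of its group in both genes (Cish 8.02, Bcl6 7.11). Control 3 had the lowest Cish of all (5.96), with Bcl6 at 7.69, below controls 1 and 2.

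Ghr and Stat5b varied together, with r = 0.80 (rho 0.69, n = 8) and 0.82 without control 3, though over a range of only 0.23 in Ghr. Igf1 had r = 0.64 with Ghr (rho 0.26, n = 8) and r = 0.64 with Stat5b (rho 0.57, n = 8). With Socs2 it had r = 0.23 (rho 0.48, n = 8), which was 0.53 without control 3, and with Igfals r = 0.22 (rho 0.29, n = 8). The order of these values depends on the measure.

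**Figure D5:**
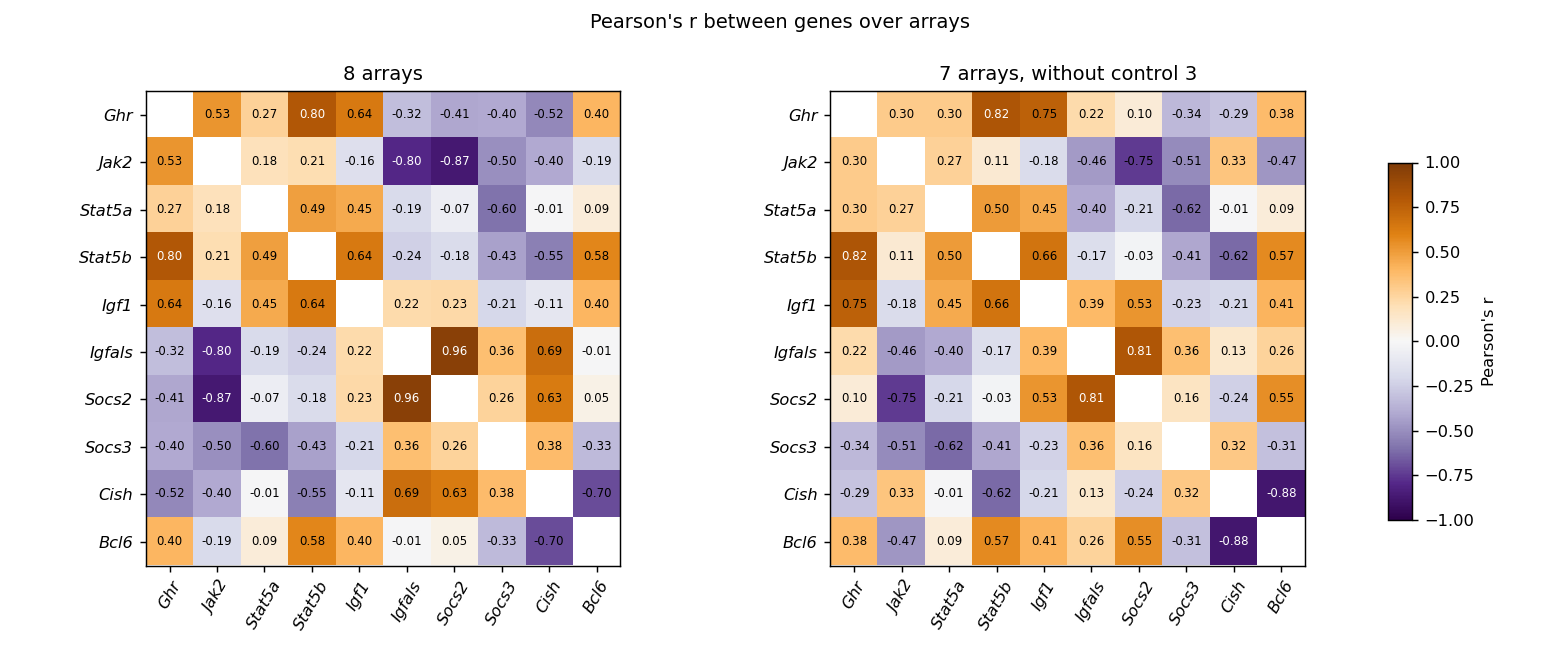
Pearson's r between each pair of the 10 genes over all 8 arrays (left) and over the 7 arrays without control 3 (right); orange is positive and purple negative. Socs2 with Igfals stays positive in both panels (0.96 and 0.81), whereas Socs2 with Cish is 0.63 on the left and -0.24 on the right.

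STAT5 binds the palindrome TTCNNNGAA, which reads the same on both strands. Promoters of RefSeq (assembly GRCm38.p6), from 250 bases before to 50 after a transcript's start, were given for 9 of the 10 genes and were searched for these letters. None was given for Socs2, which was therefore not searched. The motif was found in 4 of those 9 genes, Igfals, Socs3, Cish and Bcl6, where 9.55% of 27025 genes with a promoter hold it. By promoter, 6 of 15 held it, beside 8.3% of 32851. Each match is a description and not a shown binding site, and BCL6 is known to bind similar letters, so the motif does not separate the factors. The stretches with the motif are shown because Igfals, Cish and Bcl6 are among the genes that varied most between arrays. Each runs 5′ to 3′ on the strand of its gene, with the motif in capitals.
Cish, chr9:107296654-107296683, plus strand: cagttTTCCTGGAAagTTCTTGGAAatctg
Bcl6, downstream start, chr16:23981353-23981461, minus strand: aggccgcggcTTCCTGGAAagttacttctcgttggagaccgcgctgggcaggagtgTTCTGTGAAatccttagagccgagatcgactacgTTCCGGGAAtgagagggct
Bcl6, upstream start, chr16:23988952-23988980, minus strand: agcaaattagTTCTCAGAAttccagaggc
Igfals, upstream start, chr17:24877598-24877626, plus strand: gatctataatTTCTCAGAAaagaggctga
Igfals, middle start, chr17:24878163-24878191, plus strand: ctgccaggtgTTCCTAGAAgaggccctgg
Socs3, chr11:117969502-117969530, minus strand: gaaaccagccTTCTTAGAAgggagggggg

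In Cish 2 motifs lie side by side at the annotated start, beginning at bases 1 and 12 of the transcript. In Bcl6 3 motifs lie before the downstream start, beginning at -168, -122 and -88, and 1 before the upstream start at -118. Igfals has 1 before its upstream start (-236) and 1 before its middle start (-58), and Socs3 has 1 at -154. The letters TTCCTGGAA occur in the windows of both Cish and Bcl6. No promoter of Ghr, Jak2, Stat5a, Stat5b or Igf1 held these letters in the window, which says nothing of sites elsewhere.

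The genes most like 4 of the members across the 8 arrays were sought among 9663 genes above the median level. For Socs2 the highest r was 0.994, with Eif6, a ribosome assembly factor, followed by Tmbim1 (0.984) and the cholesterol synthesis enzyme gene Pmvk (0.982). Eif6 stood at 10.85, 10.92, 11.02 and 10.84 with hydrogen water, against 11.00, 11.18, 10.03 and 11.00 in controls. It ranked the 8 arrays exactly as Socs2 did (rho 1.00), and r was 0.95 without control 3. Tmbim1 and Pmvk had r = 0.86 and 0.85 without that array. In all 137 genes reached r = 0.9 with Socs2.

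Igf1 was most like Uhrf1bp1l (r = 0.934), Msto1 (0.93) and Ddx46 (0.913). Bcl6 was most like Cep43 (0.962), Drg1 (0.958) and Pgam5 (0.945), which stood at 0.97, 0.96 and 0.97 without control 3. Socs3 was most like Kcp (0.945), Adck2 (0.945) and Lhb (0.936). With 8 arrays and so many candidates, high values of r are found for many genes, and 6, 13 and 10 genes reached 0.9 with Igf1, Bcl6 and Socs3.

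The wider pathway was described through 8 lists of 125 distinct genes, of which 113 were measured. Of these, 0 passed limma's adjusted threshold in either direction (lowest adjusted p = 0.636), so the values below are given without a call. Without adjustment, p was under 0.05 in 5 that were higher and 4 that were lower, beside 3.6% and 3.57% of all genes.

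Among 12 other signalling genes, 9 were higher and 3 lower with hydrogen water, with a median difference of 0.14. Sh2b1, an adaptor that binds JAK2, stood at 7.80, 7.65, 7.83 and 7.87 with hydrogen water and 7.55, 7.46, 7.32 and 7.68 in controls, a difference of 0.29 (SE 0.11), with hydrogen water 2 just below control 4. Stat6, the transcription factor of interleukin-4 signalling, differed by 0.21 (SE 0.11), the kinase gene Tyk2 by -0.17 (SE 0.11) and the adaptor gene Grb2 by -0.07 (SE 0.14), or -0.17 without control 3. Among 15 inhibitors of cytokine signalling, 8 were higher and 7 lower, with a median of 0.02. Sirpa, a membrane protein of macrophages and other cells that recruits phosphatases, differed by 0.36 (SE 0.13), and the ubiquitin ligase gene Cbl by 0.26 (SE 0.10). Pias4 and Socs6 differed by -0.11 (SE 0.11) and -0.11 (SE 0.12).

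In the IGF system, 9 of 15 genes were higher and 6 lower, with a median difference of 0.04. Igfbp1, an IGF-binding protein gene that fasting induces and insulin represses, stood at 13.04, 12.39, 12.54 and 12.90 with hydrogen water, against 11.50, 13.24, 11.71 and 11.86 in controls. Control 2 was the highest array and the other 3 controls lay below every hydrogen water array, a difference of 0.64 (SE 0.31, limma adjusted p = 0.716). Igfbp2 differed by -0.08 (SE 0.15), or -0.21 without control 3. Igfbp3, whose product binds IGF-1 and the acid-labile subunit in blood, differed by 0.19 (SE 0.18). Stc1, Pappa and Igf2 differed by 0.20 (SE 0.11), -0.13 (SE 0.09) and -0.11 (SE 0.10), all below the median level of 5.87; that of Igf2 was -0.04 without control 3.

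Of the 9 liver transcription factors that act beside STAT5, 6 were higher and 3 lower, with a median of 0.06. Without control 3, 3 were higher and 6 lower, with a median of -0.04, so 1 array set the direction. Onecut1 (HNF6), which growth hormone induces in rodent liver, stood at 7.78, 7.80, 9.85 and 8.20 with hydrogen water, against 7.04 to 8.08 in controls. Hydrogen water 3 was far above all other arrays and control 3 the lowest, and the difference was 0.67 (SE 0.40), or 0.44 without control 3. Cux2, a repressor found in female mouse liver, differed by 0.22 (SE 0.16) and was also highest on hydrogen water 3 (6.73). Foxa2 differed by -0.29 (SE 0.18) and the glucocorticoid receptor gene Nr3c1, a partner of STAT5 in hepatocytes, by -0.12 (SE 0.11).

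Among growth hormone-responsive genes that are higher in male than in female mouse liver, 19 of 21 were lower with hydrogen water. Over all genes, 10223 of 19938 were lower. The list had a median difference of -0.18 and 0 genes past the adjusted threshold. A similar list had earlier been seen to move this way in the same arrays, so the count is not independent evidence. The steroid enzyme gene Hsd3b5 stood at 7.62, 6.56, 6.35 and 6.11 with hydrogen water, against 7.78, 8.62, 7.31 and 7.33 in controls, and hydrogen water 1 alone overlapped the controls. Its difference was -1.10 (SE 0.33, limma adjusted p = 0.636), and that of Ugt2b38 was -0.53 (SE 0.17). Cyp2d9 (0.00, SE 0.09) and Moxd1 (0.05, SE 0.11, or -0.01 without control 3) were on the other side. Around each gene's mean, the list had medians of -0.00, 0.03, -0.17 and -0.14 on hydrogen water 1 to 4. On controls 1 to 4 they were -0.01, 0.22, 0.07 and 0.02, where Socs2, Igfals and Cish were low on control 3. Hydrogen water 1 and 2 thus lay within the range of the controls, and the lower values came from hydrogen water 3 and 4.

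Of 14 genes higher in female liver, 6 were higher and 8 lower with hydrogen water, with a median of -0.03. Cyp2b13, Cyp3a16, Sult3a1, A1bg, Hao2 and Atp6v0d2 lay below the median level of all genes, where a direction says little. Cyp17a1 differed by 0.70 (SE 0.26), Fmo2 by 0.51 (SE 0.32), Cyp3a44 by -0.48 (SE 0.17) and Cyp3a16, at a low level, by -0.37 (SE 0.18). Without control 3 the differences of Fmo2 and Cyp3a16 were 0.12 and -0.19. Fmo2 stood at 8.15 on control 3, against 9.68 to 10.07 with hydrogen water and 9.33 to 9.97 on the other controls, and ranked just below Igfals among the genes lowest on control 3. Abcd2, a peroxisomal transporter gene, was also low there, at 6.28.

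Among the 19 acute phase and interleukin-6 genes, 7 were higher and 12 lower, with a median of -0.05. Il6ra and Il6st, the receptor subunits, differed by 0.27 (SE 0.15) and 0.21 (SE 0.11), and Orm1 and Orm2 by -0.15 (SE 0.11) and -0.54 (SE 0.21), or -0.06 and -0.32 without control 3. Of 10 fasting hormones and regulators, 8 were higher and 2 lower, with a median of 0.07. Ppara, the fasting receptor of fatty acids, differed by 0.33 (SE 0.13) and Cpt1a by 0.15 (SE 0.11), while Pdk4 and Klb differed by -0.15 (SE 0.48) and -0.01 (SE 0.12; -0.05 without control 3). Fgf21, the fasting hormone known to blunt growth hormone signalling in mouse liver, stood at 7.65, 7.24, 7.04 and 6.95 with hydrogen water, against 6.91, 7.69, 6.81 and 7.43 in controls, with control 3 lowest.

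Markers of other liver cells are given as values, none past the adjusted threshold. Kupffer cell markers were higher with hydrogen water in 10 of 10 genes, and sinusoidal endothelial markers in 7 of 7. The log2 summed signal of the Kupffer cell markers was 10.37 to 11.18 with hydrogen water and 10.07 to 10.83 in controls. Control 3 was the top of that control range (10.83). The endothelial markers summed to 11.19 to 11.87 with hydrogen water and 11.00 to 11.49 in controls, with control 3 at 11.15. Without adjustment, limma's p was under 0.05 in 4 Kupffer cell and 3 endothelial markers, all higher, beside 3.6% of all genes. The lowest marker of each list, Marco at 4.88 and Pecam1 at 6.73 on average, was above the bottom of the scale. The 7 hepatocyte markers summed to 16.76 to 16.79 with hydrogen water and 16.75 to 16.80 in controls, with control 3 at 16.78. Their part in the differences of the axis genes was not tested.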

How the data were processed

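The authors deposited 1 table of log2 signals, which the submitters' processing notes credit to Affymetrix Expression Console. Its version, normalization and summary method, and any genome build, were not given in the sources used here, and the log2 scale was read from the values. Arrays have no sequencing depth. Groups and replicate numbers came from the sample titles. The treatment text in the labels is the same for all samples and was not used to assign the groups. The start age given above was read from text worded alike for both groups.

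Of 35556 probe sets, 21789 had 1 gene symbol, brought up to date by Entrez identifier (RefSeq, GRCm38.p6; 19856 of 19938 genes matched); 1621 had several and 12146 are unnamed here. The probe set of highest mean stood for its gene, with no filter. Listed genes without such a probe set were not analysed here. limma 3.58.1 in R 4.3.3 (lmFit, eBayes, two-sided, Benjamini-Hochberg over 19938 genes, threshold 0.05) compared 4 hydrogen water with 4 control arrays, and was tested on simulated data. The replicate numbers are not said to mark anything shared, so the samples were not paired in the main fit. Figures used matplotlib 3.10.9.

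The members and lists were chosen with earlier results of these data known. Named were the 10 members, in each list and direction the 2 genes of smallest unadjusted p, and for Igf1, Socs2, Bcl6 and Socs3 the 3 genes with the highest Pearson r; other names followed from their values. Alternatives were other probe sets, a filter on dim sets, quantile normalization, median centring, trended variance, array weights, a replicate block, an exact permutation test and leaving out each array.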

Additional observations from a re-analysis of the deposited data

Results flagged for a closer look

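Among 24 sets of 4 arrays (each probe set of the 10 genes in each group), 5 had an array whose gap to its nearest neighbour took up more of the group's range than Dixon's 95% critical value allows; chance alone flags about 1 in 20 groups. Control 3 and these genes were singled out with earlier results of these arrays known, so its flags restate that observation and are no test of it. Control 3 was the array in Socs2 (7.13, a gap of 0.881 of the range), in Igfals (7.56, 0.867) and in Igf1 (12.12, 0.893). In Igf1 the controls spanned so little (SD 0.02) that the gap is a few hundredths on the log2 scale. Control 4 was the array in Stat5b (8.68, 0.905). Hydrogen water 4 was the array in the second probe set of Socs3 (5.63, 0.871). On the second probe set of Socs2 the gap of control 3 was 0.809 of the range (6.31), just short of that value.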

How the results depend on the processing

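Of 163 recomputed differences of the 10 genes, 149 kept their direction and their side of the threshold, and 14 turned direction; 0 passed the adjusted threshold (lowest limma adjusted p = 0.449). Directions turned with array weights in Jak2 (0.09), Igfals (-0.19) and Socs2 (-0.11), without control 3 in Jak2 (0.16), Igfals (-0.46) and Socs2 (-0.51), and with the other probe set in Socs2 (-0.11; -0.47 without control 3 too, an alternative added after seeing the data) and Socs3 (0.04). Leaving out single arrays gave ranges of -0.16 to 0.16 in Jak2, -0.46 to 0.21 in Igfals, -0.51 to 0.73 in Socs2 and -0.33 to 0.04 in Socs3. Igfals turned without hydrogen water 3 too (-0.11). Leaving out control 3 was also applied to the other pathway genes, an alternative added after seeing the data. Among those with a difference given above, it turned the direction of Moxd1 (0.05 with all arrays, -0.01 without). Of those named without a difference, Lcn2 (-0.29 with all arrays, 0.11 without), Fgf21 (0.01, -0.12), Abcd2 (0.06, -0.27) and Hao2 (-0.03, 0.05) turned as well. Leaving out control 3 also turned the list medians of the liver transcription factors (-0.04 to 0.06) and of the 4 neutrophil markers (-0.01 to 0.04). Array weights gave control 3 the lowest weight (0.424). Over all genes, the count past the adjusted threshold was 0 in every setting except without control 2 (1 gene, Sucnr1) and without control 3 (1 gene, Aqp8), neither a member of the axis. The count at an unadjusted p under 0.05 was 794 with the filter on dim probe sets, which tests fewer genes, and 750 by the exact permutation test, beside 1429. With the replicate block it was 1313 and the count past the adjusted threshold 0; same-numbered arrays deviated with correlations of -0.16 to 0.06, so the numbers were not treated as pairs, and the block changed no call. The median correlation over pairs was 0.14 by Spearman's rho and 0.11 without control 3, beside -0.01, and lay between -0.03 and 0.11 when single arrays were left out; the cause was not tested. The median SD of the 10 genes was 0.28 without control 3. With 4 arrays per group, differences within the intervals given are not excluded.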
